A study of Arabidopsis thaliana with 48 samples.

Results

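The 6 guard cell genes described here were taken by name, by the loci of the anion channel SLAC1, the inward potassium channels KAT1 and KAT2, the outward potassium channel GORK, the protein kinase HT1 and the transcription factor MYB60. They are 6 of the 27655 Arabidopsis thaliana genes in the count tables. They were followed in rosette leaves of wild type Col-0 (WT) and of mta, a line in the same ecotype in which the loss of MTA, the catalytic subunit of the N6-methyladenosine (m6A) mRNA methylase, is complemented by MTA under the ABI3 promoter. That promoter acts mainly in the embryo and seed, which carries the line past the embryo lethality of the mutation, so the line is not a null. Plants 17 days old were either kept watered (control) or left without water for 12 days (drought), which makes 4 groups: WT control, WT drought, mta control and mta drought. Each group had 3 libraries of poly(A) mRNA, 3 of polysomal RNA from gradient fractions with more than 2 ribosomes, 3 of GMUCT, which reads uncapped RNA with a free 5′ monophosphate, and 3 lists of m6A peaks. Whether the 3 libraries within a group stem from separate plants is not stated in the labels, so p-values measure only the spread between these samples, which may be technical.

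A stomatal pore opens when its pair of guard cells takes up potassium and swells, and closes when anions and potassium leave again. KAT1 and KAT2 let potassium in. SLAC1 releases anions in response to abscisic acid and CO2, which depolarises the membrane, and GORK then lets potassium out. HT1 is a kinase that keeps stomata open at low CO2 by restraining the pathway to SLAC1, and MYB60 is a guard cell factor whose loss is known to reduce stomatal opening.

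Depth in counts per library ranged from 1504013 to 5503037 for mRNA, from 35833742 to 43032763 for polysomal RNA and from 1313457 to 12421168 for GMUCT. The shallowest mRNA library, WT control replicate 3, stood apart in its plastid share, 11.7% of counts, where the other mRNA libraries had 1.93% to 4.36%. MTA itself stood at 17.7 to 25.98 CPM (the count relative to the TMM-scaled library total) in the WT mRNA libraries and at 6.98 to 10.6 CPM in those of mta, without overlap. Among markers of mature and developing guard cells in the polysomal libraries, the myrosinase TGG1 was at 2734 to 2821 CPM in WT control, 1406 to 1508 in WT drought, 5768 to 5898 in mta control and 3101 to 3147 in mta drought. The lineage factor FAMA was at 19.5 to 21.1, 9.46 to 11.6, 30.3 to 33.4 and 12.99 to 14.5 CPM in the same order, and the factor SCAP1, a marker of mature guard cells, was at 4.20 to 4.94, 2.60 to 3.86, 4.28 to 5.98 and 1.09 to 3.68 CPM, so guard cell RNA was detected in every group. Between mta and WT under drought TGG1 and FAMA were higher in mta, while SCAP1 was at -0.76 ± 0.34 on the log2 scale (adjusted p = 0.0593, edgeR). In whole leaves, fewer cells of a type and less RNA per cell cannot be told apart.

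Drought lowered 4 of the 6 genes and raised 1, GORK, in the WT mRNA libraries (edgeR quasi-likelihood test, Benjamini-Hochberg adjusted p below 0.05), where 67.9% of all genes tested were called in either direction. In mta mRNA the count was again 4 lower and 1 higher, with 70.3% of all genes called. The same 4 and 1 were counted in WT polysomal RNA, against a background of 76.4%, and 3 lower and 1 higher in mta polysomal RNA, against 70.6%. With backgrounds this high, the shares of members called are close to those of all genes, and the sizes and directions are what tell the members apart. In watered plants none of the 6 passed the edgeR test between mta and WT in mRNA, where 17.8% of genes were called, or in polysomal RNA, where 40.1% were, with 0 members under an unadjusted p of 0.05 and 0 called by DESeq2 in either. All 6 passed the filter on low counts in every measure, but in mRNA HT1 and MYB60 had all libraries over the minimum in mta control alone and KAT2 in the watered groups alone, so a call of a fall there is partly built into the filter.

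**Figure D1:**
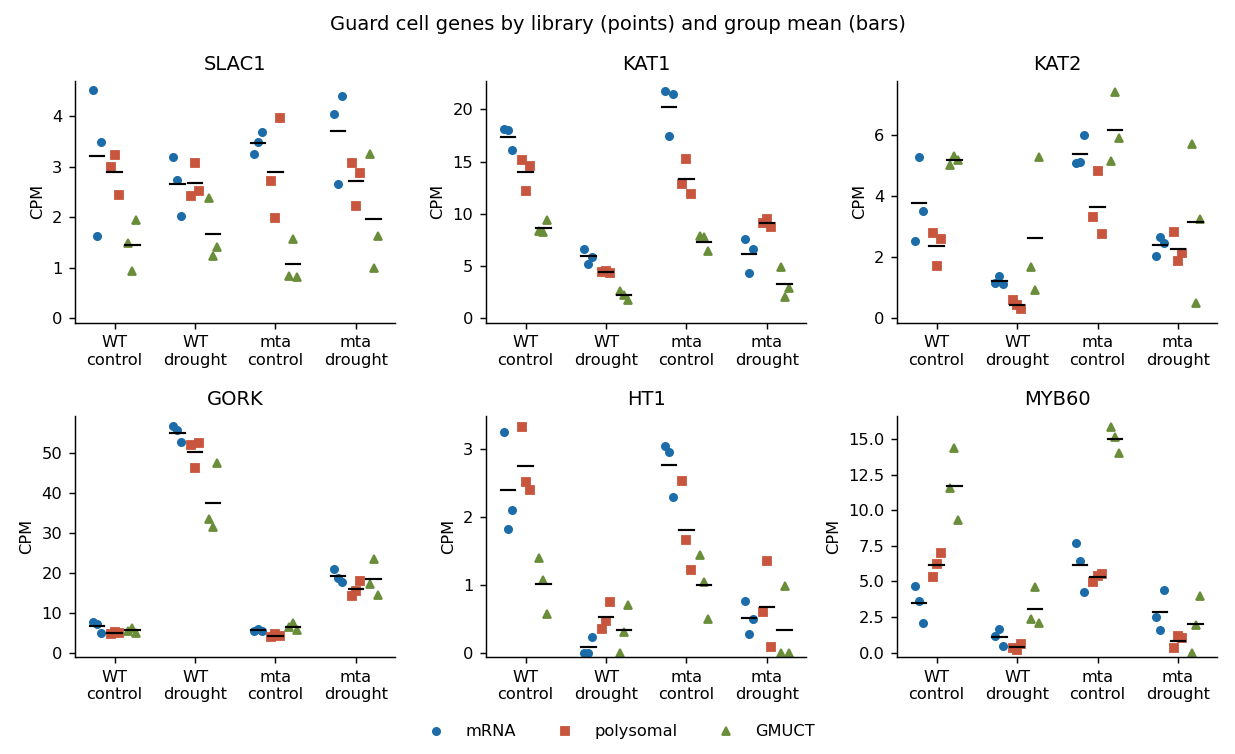
CPM of each gene (vertical axis, linear, from 0, with its own range per panel) in the 4 groups, with 1 point per library and a bar at the mean of 3 libraries. GORK is far above its watered level in WT drought and between those levels in mta drought, while polysomal KAT1 in mta drought lies between its watered level and WT drought.

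GORK (AT5G37500, chr5:14889245-14895233, minus strand, TAIR10), the outward potassium channel, was the member that drought raised, and it rose less in mta. Its mRNA stood at 7.59, 7.08 and 4.90 CPM in WT control and at 56.7, 55.7 and 52.8 CPM in WT drought. In mta it stood at 5.48, 5.90 and 5.29 CPM in control and at 20.99, 18.6 and 17.6 CPM in drought. Both drought groups lay above both watered groups, and mta drought lay below WT drought, with no overlap between these 3 levels. The log2 fold change with drought was 2.97 ± 0.15 (SE, n = 3 libraries per group, adjusted p = 7.44e-14) in WT and 1.78 ± 0.17 (adjusted p = 4.83e-09) in mta. The drought effect in mta minus that in WT was -1.19 ± 0.24 (adjusted p = 0.000518, edgeR), and GORK was the only member with such a difference in mRNA, where 37.6% of genes had one. That call was lost when a trend of fold change with gene span was removed, which gave -0.61 (adjusted p = 0.0715). GORK has the longest span of the 6, 5989 bases.

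Polysomal GORK showed the same order. It stood at 4.57, 5.04 and 4.83 CPM in WT control, 52.0, 46.3 and 52.6 CPM in WT drought, 3.99, 4.54 and 4.23 CPM in mta control, and 14.2, 15.4 and 17.8 CPM in mta drought. No library of either drought group overlapped a watered one, and the lowest WT drought library was above the highest mta drought library. The log2 fold change with drought was 3.39 ± 0.12 in WT (adjusted p = 1.45e-18) and 1.89 ± 0.12 in mta (adjusted p = 3.35e-13), and the difference of these was -1.49 ± 0.17 (adjusted p = 4.26e-08, edgeR), in a comparison where 45.4% of all genes were called. Under drought, mta lay below WT by -1.53 ± 0.12 on the log2 scale in mRNA and by -1.67 ± 0.11 in polysomal RNA (adjusted p = 8.76e-10 and 1e-12, edgeR). GMUCT reads of GORK followed, with 5.01 to 6.17 CPM in WT control, 31.4 to 47.4 in WT drought, 5.73 to 7.31 in mta control and 14.5 to 23.6 in mta drought.

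KAT1 (AT5G46240, chr5:18743510-18747406, minus strand), an inward channel of the Shaker family, was lower under drought in both genotypes, and its mRNA and polysomal RNA parted in mta. Its mRNA stood at 18.1, 18.0 and 16.1 CPM in WT control and 6.61, 5.22 and 5.86 CPM in WT drought. In mta the mRNA stood at 21.7, 17.4 and 21.5 CPM in control and 7.58, 4.26 and 6.61 CPM in drought. The drought groups of the 2 genotypes overlapped each other and neither overlapped a watered group. The log2 fold change of the mRNA with drought was -1.57 ± 0.20 in WT (adjusted p = 5.54e-07) and -1.72 ± 0.19 in mta (adjusted p = 8.27e-08), and the difference of the 2 effects, -0.14 ± 0.30, did not pass the test (adjusted p = 0.747, edgeR).

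In polysomal RNA, KAT1 stood at 15.2, 12.2 and 14.6 CPM in WT control and 4.44, 4.48 and 4.31 CPM in WT drought. In mta it stood at 12.8, 15.2 and 11.9 CPM in control and 9.14, 9.44 and 8.71 CPM in drought. All 3 mta drought libraries lay above all WT drought libraries and below all watered ones. The drought log2 fold change was -1.67 ± 0.15 in WT (adjusted p = 2.51e-10) and -0.55 ± 0.14 in mta (adjusted p = 0.00136), a difference of 1.12 ± 0.20 (adjusted p = 7.16e-05, edgeR). Under drought KAT1 was higher in mta than in WT by 1.05 ± 0.15 on the log2 scale in polysomal RNA (adjusted p = 1.59e-06), while in mRNA the difference was 0.06 ± 0.24 (adjusted p = 0.857, edgeR).

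KAT2 (AT4G18290, chr4:10114794-10118652, plus strand), which can assemble with KAT1 in one channel, had a lower level per kb of span than KAT1 in every mRNA and polysomal library. Its mRNA stood at 2.53, 5.26 and 3.50 CPM in WT control and 1.14, 1.37 and 1.13 CPM in WT drought, and at 5.08, 5.10 and 5.99 CPM in mta control and 2.02, 2.66 and 2.45 CPM in mta drought. WT drought lay below every other group, and mta drought overlapped WT control. The mRNA fell with drought by 1.63 ± 0.41 on the log2 scale in WT (adjusted p = 0.00126) and by 1.18 ± 0.32 in mta (adjusted p = 0.0027, edgeR).

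Polysomal KAT2 stood at 2.77, 1.70 and 2.59 CPM in WT control and at 0.577, 0.417 and 0.297 CPM in WT drought. In mta it stood at 3.31, 4.82 and 2.75 CPM in control and at 2.81, 1.87 and 2.14 CPM in drought. Every mta drought library lay above every WT drought library, and mta drought overlapped both watered groups. The fall with drought was 2.46 ± 0.40 in WT (log2 fold change -2.46, adjusted p = 5.04e-06), and in mta the log2 fold change of -0.67 ± 0.34 missed the threshold (adjusted p = 0.0848). The latter passed with DESeq2 (-0.75, adjusted p = 0.0391), with the span trend removed (-0.78, adjusted p = 0.046), and without WT drought replicate 1 or mta drought replicate 1 (adjusted p = 0.0427 and 0.0411). The difference of the drought effects was 1.78 ± 0.52 (adjusted p = 0.0069), and under drought mta was above WT by 2.40 ± 0.40 on the log2 scale (adjusted p = 1.18e-05, edgeR).

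**Figure D2:**
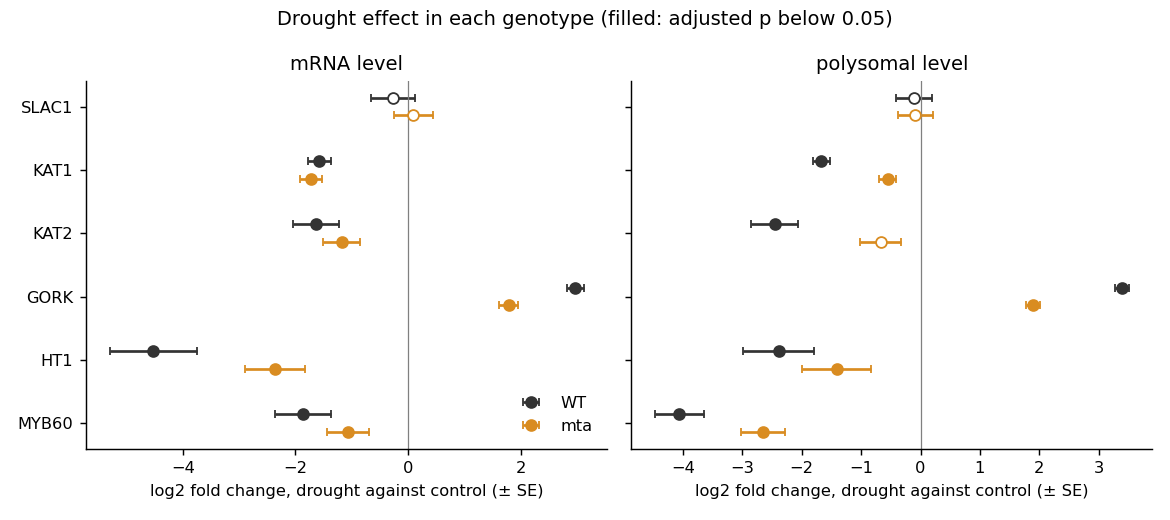
Log2 fold change of drought against control (horizontal axis, ± SE, 3 libraries per group) of the 6 genes in WT and mta, for the mRNA level on the left and the polysomal level on the right, with filled points past an adjusted p of 0.05. The HT1 value in WT mRNA rests on 1 drought count and is no measure of size. In polysomal RNA, GORK, KAT1, KAT2 and MYB60 lie nearer to 0 in mta than in WT, while for mRNA the KAT1 points of the genotypes overlap.

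SLAC1 (AT1G12480, named OZS1 in RefSeq, chr1:4257268-4259300, minus strand), the anion channel, did not pass the test in any of the 5 contrasts of any measure. Its mRNA stood at 4.52, 1.62 and 3.50 CPM in WT control, 3.19, 2.75 and 2.03 in WT drought, 3.25, 3.49 and 3.70 in mta control, and 4.05, 2.66 and 4.40 in mta drought. Polysomal SLAC1 stood at 3.00, 3.23 and 2.44 CPM in WT control, 2.42, 3.07 and 2.53 in WT drought, 2.72, 1.99 and 3.96 in mta control, and 3.08, 2.23 and 2.87 in mta drought. The 4 groups overlapped in polysomal RNA. In mRNA they overlapped too, except that the highest WT drought library lay just below the lowest mta control library. The polysomal log2 fold change with drought was -0.11 ± 0.30 in WT and -0.08 ± 0.30 in mta (adjusted p = 0.745 and 0.814, edgeR). With these errors a fall of SLAC1 as large as those of KAT1 and KAT2 in mta polysomal RNA is not excluded. The end of SLAC1 overlaps 125 bases of AT1G12470 on the other strand, and GMUCT was counted without strand, so its GMUCT reads there cannot be assigned to one gene.

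HT1 (AT1G62400, chr1:23089610-23091732, plus strand), the kinase, was lower under drought, at counts too small for a firm size in mRNA. The mRNA stood at 3.25, 1.82 and 2.10 CPM in WT control and at 0, 0 and 0.226 CPM in WT drought, and at 3.05, 2.95 and 2.29 CPM in mta control and 0.758, 0.266 and 0.489 CPM in mta drought. Drought and watered libraries did not overlap in either genotype. In counts this was 30 against 1 in WT, a depth-corrected ratio of 33.1 (95% exact interval of counting error 5.5 to 1350), and 39 against 6 in mta, a ratio of 5.33 (2.24 to 15.4). Both falls passed the test (adjusted p = 2.22e-05 and 0.000463, edgeR).

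Polysomal HT1 stood at 3.32, 2.52 and 2.39 CPM in WT control and 0.346, 0.469 and 0.743 CPM in WT drought. In mta it stood at 2.53, 1.66 and 1.22 CPM in control and 0.595, 1.35 and 0.0782 CPM in drought. The WT groups were apart and the mta groups overlapped. The log2 fold change with drought was -2.39 ± 0.59 in WT (adjusted p = 0.000868) and -1.41 ± 0.58 in mta (adjusted p = 0.0336, edgeR). The mta call was lost without mta control replicate 1 (-1.09, adjusted p = 0.145), mta control replicate 2 (-1.47, 0.0506), mta drought replicate 1 (-1.42, 0.0677) or mta drought replicate 3 (-0.97, 0.0957). The difference between the drought effects, 0.98 ± 0.82, did not pass (adjusted p = 0.357).

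MYB60 (AT1G08810, chr1:2819065-2820478, minus strand), the transcription factor, had the largest polysomal fall of the 6. Its mRNA stood at 4.70, 3.64 and 2.10 CPM in WT control and 1.14, 1.65 and 0.451 in WT drought, and at 7.72, 6.44 and 4.23 in mta control and 2.53, 1.60 and 4.40 in mta drought. The WT groups did not overlap, and the highest mta drought library lay just above the lowest mta control library. The mRNA log2 fold change with drought was -1.86 ± 0.50 in WT (adjusted p = 0.00228) and -1.07 ± 0.37 in mta (adjusted p = 0.0134, edgeR). The mta call was lost without mta control replicate 1 (-0.84, adjusted p = 0.0739) or mta drought replicate 2 (-0.79, 0.0775).

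Polysomal MYB60 stood at 5.31, 6.24 and 7.03 CPM in WT control and 0.346, 0.156 and 0.594 in WT drought. In mta it stood at 4.96, 5.39 and 5.54 CPM in control and 0.325, 1.19 and 0.991 in drought. Every drought library was far below every watered one, and the drought groups of the genotypes overlapped. The log2 fold change with drought was -4.06 ± 0.41 in WT (adjusted p = 2.48e-09) and -2.65 ± 0.37 in mta (adjusted p = 7.24e-07, edgeR). The difference of these, 1.41 ± 0.55, was at an adjusted p of 0.0394 and was lost under 10 of 19 alternatives: with the span trend removed, and when any of WT control 2 or 3, WT drought 1 or 2, mta control 1, 2 or 3 or mta drought 2 or 3 was left out (0.0589 to 0.144).

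Under drought, 1 member was lower in mta than in WT and 1 higher in mRNA, GORK and MYB60, against 52.7% of all genes called, and 1 was lower and 3 higher in polysomal RNA, GORK against KAT1, KAT2 and MYB60, with 59.2% of all genes called. MYB60 was higher in mta by 1.43 ± 0.53 on the log2 scale in mRNA (adjusted p = 0.0266) and by 1.18 ± 0.44 in polysomal RNA (adjusted p = 0.024, edgeR). The mRNA call was lost with the span trend removed (1.05, adjusted p = 0.112) and without WT drought replicate 1 (1.50, 0.0557), WT drought replicate 3 (1.05, 0.129) or mta drought replicate 3 (0.97, 0.194). The polysomal call was lost with the span trend removed (0.84, adjusted p = 0.102) and without WT drought replicate 1 (1.04, 0.0725), WT drought replicate 2 (0.82, 0.125), mta drought replicate 2 (0.84, 0.146) or mta drought replicate 3 (0.95, 0.101). KAT2 mRNA, at 0.96 ± 0.44, missed the threshold (adjusted p = 0.0744) and passed it with the span trend removed (1.16, 0.0358). HT1 mRNA, with 6 counts against 1, passed only without WT drought replicate 3, the library that held that 1 count (adjusted p = 0.0821 with all libraries and 0.0407 without it).

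Because WT control replicate 3 stood apart, the WT mRNA effects were read without it. KAT1 was then at -1.57, KAT2 at -1.62, GORK at 2.93, MYB60 at -1.95 and SLAC1 at -0.21 on the log2 scale, HT1 and the others kept their calls, and the GORK difference between genotypes was -1.17 (adjusted p = 0.000618, edgeR).

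Under drought GORK passed KAT1 in level per kb of span in both genotypes, by less in mta. The span runs from gene start to gene end with introns, 5989 bases for GORK and 3897 for KAT1. The size of the ratio thus depends on this divisor, while its shifts between groups do not. In plain CPM, polysomal mta drought had 14.2 to 17.8 for GORK and 8.71 to 9.44 for KAT1. Per kb of gene span, the ratio of polysomal GORK to KAT1 within a library was 0.196, 0.268 and 0.215 in WT control and 7.62, 6.73 and 7.94 in WT drought. In mta it was 0.202, 0.194 and 0.231 in control and 1.01, 1.06 and 1.33 in drought. The 2 watered groups overlapped, and the drought groups stood apart from them and from each other. The mean log2 ratio was 2.72 lower in mta drought than in WT drought (difference -2.72, exact permutation test, two-sided p = 0.1, the smallest that 3 against 3 libraries can give). In mRNA the ratio was 0.198 to 0.273 in WT control, 5.59 to 6.95 in WT drought, 0.16 to 0.22 in mta control and 1.73 to 2.85 in mta drought. GMUCT gave 0.348 to 0.488, 8.28 to 17.6, 0.531 to 0.616 and 2.28 to 7.81 in the same order. Its drought ratios divide by KAT1 counts of 5 to 11 per library in WT and 4 to 16 in mta, so their sizes are not firm.

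**Figure D3:**
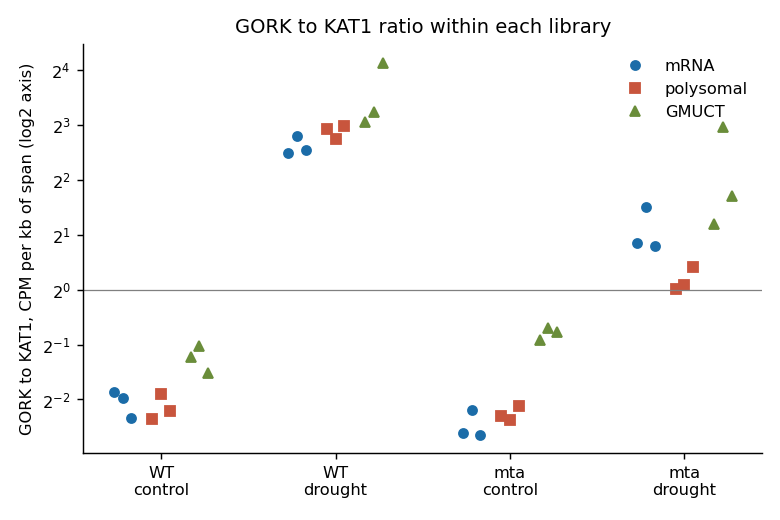
Ratio of GORK to KAT1 (CPM per kb of span, log2 axis) in each of 3 libraries per group for mRNA, polysomal RNA and GMUCT. In watered plants every library is below 1, in WT drought every library is above 5, and the polysomal libraries of mta drought lie between 1.01 and 1.33. The height of the ratio depends on the span divisor, and its shifts between groups do not. GMUCT ratios under drought rest on KAT1 counts of 5 to 11 per library in WT and 4 to 16 in mta.

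Ordered by polysomal CPM per kb of span, WT control had MYB60 (4.38 ± 0.61, SD, n = 3) and KAT1 (3.59 ± 0.40) first, which overlapped, then SLAC1 (1.42 ± 0.20) and HT1 (1.29 ± 0.24), which overlapped, GORK (0.804 ± 0.039) and KAT2 (0.609 ± 0.149). In WT drought GORK led with 8.40 ± 0.58, followed without overlap by SLAC1 (1.32 ± 0.17) and KAT1 (1.13 ± 0.02). MYB60 (0.259), HT1 (0.245) and KAT2 (0.112) were last, and of these MYB60 and HT1 overlapped. In mta control the order was MYB60 (3.75), KAT1 (3.42), SLAC1 (1.42), KAT2 (0.939), HT1 (0.848) and GORK (0.710), and only the step from KAT1 to SLAC1 was free of overlap. In mta drought GORK (2.64 ± 0.31) and KAT1 (2.34 ± 0.09) overlapped, then came SLAC1 (1.34), and MYB60 (0.592), KAT2 (0.589) and HT1 (0.318) overlapped one another. The order between genes depends on the span divisor, which counts introns. In plain CPM GORK lay above KAT1 in mta drought without overlap.

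Polysome association, the polysomal minus the mRNA level in 1 model over 24 libraries, passed the test for KAT1 and MYB60 alone. With drought KAT1 association rose in mta by 1.22 ± 0.24 on the log2 scale (adjusted p = 0.000103), while in WT it was at -0.04 ± 0.25 (adjusted p = 0.963), and the difference was 1.26 ± 0.34 (adjusted p = 0.017, edgeR). In mean CPM the polysomal to mRNA ratio of KAT1 was 0.804 in WT control, 0.748 in WT drought, 0.659 in mta control and 1.48 in mta drought. The difference was lost with the span trend removed (1.03, adjusted p = 0.0696) and without WT drought replicate 1, mta control replicate 1, mta control replicate 3 or mta drought replicate 2 (0.0535 to 0.0714). MYB60 association fell with drought by 2.14 ± 0.77 in WT (adjusted p = 0.0483) and by 1.52 ± 0.58 in mta (adjusted p = 0.0389, edgeR). The WT call was lost under 8 of 19 alternatives, the replicate block among them (-2.11, adjusted p = 0.0582), and without WT drought replicate 2 the value was -1.38 (adjusted p = 0.341). The mta call was lost with the span trend removed (-1.14, adjusted p = 0.164) and without WT control 2, mta control 2 or 3 or mta drought 1 or 3 (0.0501 to 0.211).

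Thus 1 member was called for association with drought in WT against 18.8% of all genes, 2 in mta against 35.6%, none for mta against WT in control (0 under an unadjusted p of 0.05 and 0 by DESeq2) against 8.26%, 1 (KAT1, 0.93 ± 0.27, adjusted p = 0.0173, edgeR) for mta against WT in drought against 16.8%, and 1 for the difference against 9.59%. The KAT1 call under drought was lost without WT drought replicate 1 (0.84, adjusted p = 0.0856), WT drought replicate 3 (0.92, 0.0519) or mta drought replicate 2 (0.71, 0.115). KAT2 had no call, at 1.37 ± 0.61 for mta against WT in drought (adjusted p = 0.13, edgeR). Its difference of drought effects was 1.32 ± 0.77 (adjusted p = 0.325, edgeR). With 15 and 28 mRNA counts of KAT2 in WT and mta drought, the lack of a call does not exclude a change. GORK association with drought in mta was 0.16 ± 0.20 (adjusted p = 0.61) and turned to -0.83 (adjusted p = 0.00348, edgeR) with the span trend removed.

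The uncapped share, GMUCT minus mRNA, gave no call for any member by edgeR in any of the 5 contrasts, where 4.58%, 19.1%, 0.35%, 16.5% and 7.17% of all genes were called for drought in WT, for drought in mta, between the genotypes in control, between them in drought and for the difference. GMUCT counts over the WT and mta drought groups were 3 and 2 for HT1, 18 and 15 for SLAC1 and 23 and 26 for KAT1. They were 25 and 26 for KAT2 and 31 and 26 for MYB60. HT1 passed this filter through mta control mRNA alone, with SEs of 1.57 and 1.55 for drought in WT and mta. At such counts the lack of a call does not exclude a change. At an unadjusted value under 0.05 stood only MYB60, with drought in mta (-1.24, adjusted p = 0.126, edgeR) and for mta against WT under drought (-1.54, adjusted p = 0.167, edgeR). Without the filter on low counts the former passed (-1.41, adjusted p = 0.0351), and DESeq2 called no member. In mean CPM MYB60 had the highest GMUCT to mRNA ratio of the 6 in WT control, 3.38, against 0.42 for HT1, 0.451 for SLAC1, 0.497 for KAT1, 0.85 for GORK and 1.37 for KAT2. MYB60 was at 11.6, 14.4 and 9.29 CPM in the GMUCT libraries of WT control, 2.38, 4.61 and 2.11 in WT drought, 15.9, 15.1 and 14.1 in mta control, and 0, 1.96 and 3.98 in mta drought. Watered and drought libraries did not overlap.

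GORK was the member with m6A peaks on its own strand in every group. Peaks were listed in 11 of 12 libraries: 3 of WT control, 3 of WT drought, 2 of mta control and 3 of mta drought. Their summits lay 5388 to 5518 bases from the gene start, at 90.0% to 92.1% of the span, within chr5:14889675-14889917 of TAIR10, near the 3′ end. The authors' fold enrichment, the peak caller's own value, was 7.02, 6.7 and 5.07 in WT control, 6.62, 5.3 and 7.17 in WT drought, 4.55 and 4.49 in mta control, and 4.73, 6.79 and 6.0 in mta drought. Both mta control values lay below all WT values, the mta control peaks covered different bases of the stretch, and mta drought overlapped WT. Fold enrichment in a list ranks peaks within that list, and lists of 7746 to 12228 peaks with unknown read depth do not give a methylation level.

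**Figure D4:**
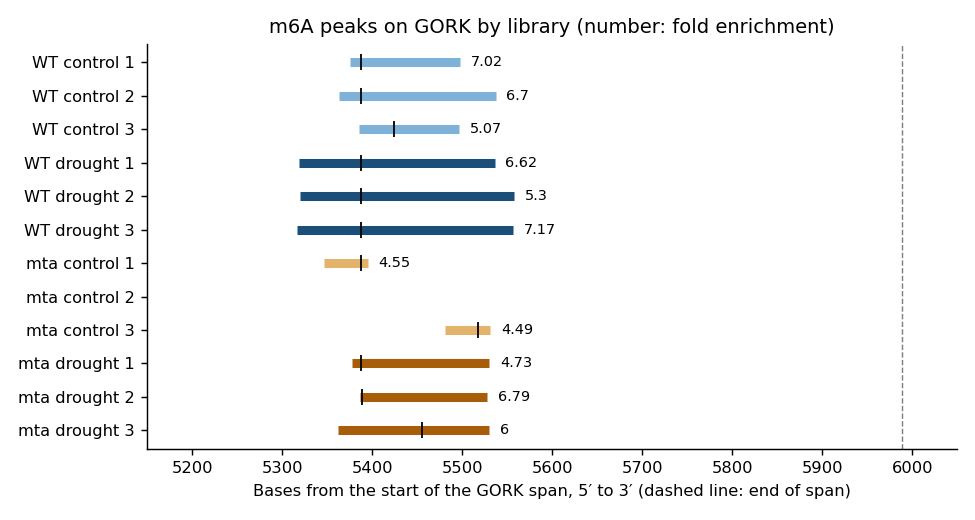
m6A peaks on GORK by library, as bases from the start of the span (horizontal axis), with the summit as a tick, the authors' fold enrichment beside the bar and the end of the span dashed. Every peak lies in the same stretch near the 3′ end, and mta control replicate 2 has none listed.

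KAT1 had a peak in 2 of 3 mta control libraries (fold enrichment 3.15 and 3.41, at 90.6% and 90.9% of the span) and in no other list. KAT2, HT1 and MYB60 had none listed, nor did SLAC1 on its own strand. Peaks on the opposite strand in all 12 libraries (fold enrichment 5.62 to 9.81) lay within chr1:4257122-4257391, a stretch of AT1G12470 that reaches into the end of SLAC1. Their summits fell inside the SLAC1 span in 2 mta control and 3 mta drought libraries and beyond its end in the other 7, all of WT among them. With a peak in at least 2 of 3 libraries counted as a region, 1 member had one in WT control, 1 in WT drought, 2 in mta control and 1 in mta drought, against 55.7%, 58.5%, 48.9% and 44% of the genes tested for mRNA. These shares are not matched for expression. In WT drought mRNA, HT1, MYB60, KAT2 and SLAC1 had 1, 13, 15 and 33 counts over the group, and GORK had 686. Whether low counts kept peaks from being listed was not tested, so an absent peak does not show absent methylation.

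The wider guard cell genes were followed in polysomal RNA in 3 lists without the members, where 76.4% of all genes were called with drought in WT and 70.6% in mta. In the difference of drought effects 45.4% of all genes were called, 5422 higher in mta and 3861 lower. Of 20 ion transport genes tested, 6 rose and 8 fell with drought in WT (median log2 fold change -0.11) and 9 rose and 8 fell in mta (median 0.22), while the median of all genes was -0.06 and 0.06. NRT1.1, a nitrate transporter, fell by 2.95 ± 0.09 on the log2 scale in WT and by 3.51 ± 0.10 in mta. ABCB14, a malate importer, fell by 2.82 ± 0.39 in WT and STP1, a sugar importer, by 2.33 ± 0.05. SLAH3, an anion channel of the SLAC1 family, rose by 2.04 ± 0.12 in mta, and ALMT6, a vacuolar malate channel, fell by 2.81 ± 1.07, a call lost without mta control replicate 3, mta drought replicate 1 or mta drought replicate 3 (adjusted p = 0.0846, 0.0518 and 0.0863). In the difference 10 were higher in mta minus WT and 1, NRT1.1, lower in polysomal RNA. In mRNA 2 of 19 were higher and 5 lower (median -0.07), where 37.6% of all genes were called, 3469 higher and 3181 lower. The largest polysomal differences were those of STP1 at 1.88 ± 0.07, ABCB14 at 1.54 ± 0.52 and STP4 at 1.31 ± 0.07 (adjusted p = 6.99e-17, 0.0174 and 4.18e-14, edgeR). For ABCB14 that call did not survive leaving out the third WT drought library (adjusted p = 0.0503), the third mta control library (0.0508) or the first mta drought library (0.0659). The number lower was 2 with DESeq2, with its size factors, with the span trend removed and without WT drought 1, mta control 3 or mta drought 1, and 3 without the filter, without organelle genes or without mta drought 3.

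Of 22 signalling genes, 7 rose and 12 fell in WT (median -0.34) and 10 rose and 7 fell in mta (median 0.10). GHR1, a receptor-like protein needed for SLAC1 activation, fell by 7.82 ± 0.40 in WT, from 1527 to 6 counts over the group, and by 4.23 ± 0.28 in mta. CA1, a carbonic anhydrase that is also abundant in mesophyll, fell by 5.83 ± 0.04 in WT and 2.99 ± 0.04 in mta, and CAS, a chloroplast calcium sensor, by 2.99 ± 0.06 and 2.42 ± 0.06. In the difference 15 were higher in mta and 2 lower, the blue light receptors PHOT1 and PHOT2, named here after their values were seen, and without mta drought replicate 3 the number lower was 4. In mRNA 9 of the 22 were higher and 6 lower, against 37.6% of all genes called, 3469 higher and 3181 lower. In polysomal RNA GHR1 was at 3.59 ± 0.60, CA1 at 2.84 ± 0.05 and SYP121, a syntaxin for channel delivery, at 2.15 ± 0.06 (adjusted p = 2.34e-05, 4.91e-23 and 5.12e-19, edgeR). The GHR1 value rests on the 6 counts of WT drought and is no firm measure of size.

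Of 21 genes of transcription and the stomatal lineage, 1 rose and 17 fell in WT (median -1.23) and 1 rose and 18 fell in mta (median -1.62). The gene that rose in both was AKS1, named after its values were seen, a factor known to activate KAT1 transcription, with 4.51 ± 0.06 in WT and 3.25 ± 0.06 in mta (adjusted p = 8.29e-27 and 5.31e-24, edgeR). In mta the number that rose was 2 with polysomal counts divided by 2 and without WT control 1 or mta control 1. SDD1, a protease that limits stomatal number, had 642 counts in WT control and 0 in WT drought, at least 107-fold lower against a floor of 3 read pairs, or 6 counts, over the group. EPF2, a peptide of the early lineage, and MYB61, a factor for stomatal closure, went from 202 and 204 counts to 0, at least 33.5-fold and 33.9-fold lower. These and BASL, which was also at 0 in WT drought, lie below the WT median of -1.23 at their bounds too, so that median could not depend on their size. In mta SDD1 fell by 6.49 ± 0.58, MUTE fell by 4.54 ± 0.97 and BASL fell by 4.12 ± 0.85, all genes of developing stomata. These falls rest on 8, 8 and 12 counts over the mta drought group, from 844, 218 and 240 in mta control. Their values are no firm measures of size. In mRNA the difference had 2 of 18 higher in mta and 4 lower (median -0.38), against 37.6% of all genes called. In polysomal RNA 5 were higher and 3 lower, with AKS3 at 1.69 ± 0.32 (adjusted p = 0.000104, edgeR) and with EPF2 and MYB61, which had 44 and 28 counts in mta drought, without an interpretable size.

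Between the genotypes in watered plants, where 40.1% of all genes were called in polysomal RNA, 3900 higher and 4291 lower in mta, 2 ion transport genes were higher in mta and 11 lower, 1 and 13 of signalling, and 5 and 2 of the lineage list. Those with the largest changes were ALMT12, the rapid anion channel (-1.82 ± 0.28), CLC-A, a vacuolar nitrate exchanger (-0.89 ± 0.05), RBOHF, an oxidase (1.42 ± 0.10), SYP121 (-1.03 ± 0.05) and the myrosinases TGG2 (1.51 ± 0.03) and TGG1 (1.07 ± 0.03). With DESeq2 and without each of 5 single replicates, WT control 2 or 3 and mta control 1, 2 or 3, the number of ion transport genes higher in mta was 1. Under drought, where 59.2% of all genes were called, 6462 higher and 5638 lower, 6 and 9 of ion transport, 12 and 6 of signalling, and 11 and 5 of the lineage list were higher and lower in mta. ABCB14 was at 1.83 ± 0.40, STP4 at 1.77 ± 0.05, GHR1 at 3.51 ± 0.55 and CA1 at 2.34 ± 0.04, while EPF2 was at least 7.39-fold and MYB61 at least 4.7-fold higher than the WT group at 0. The GHR1 value rests on 72 counts in mta drought against 6 in WT drought.

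**Figure D5:**
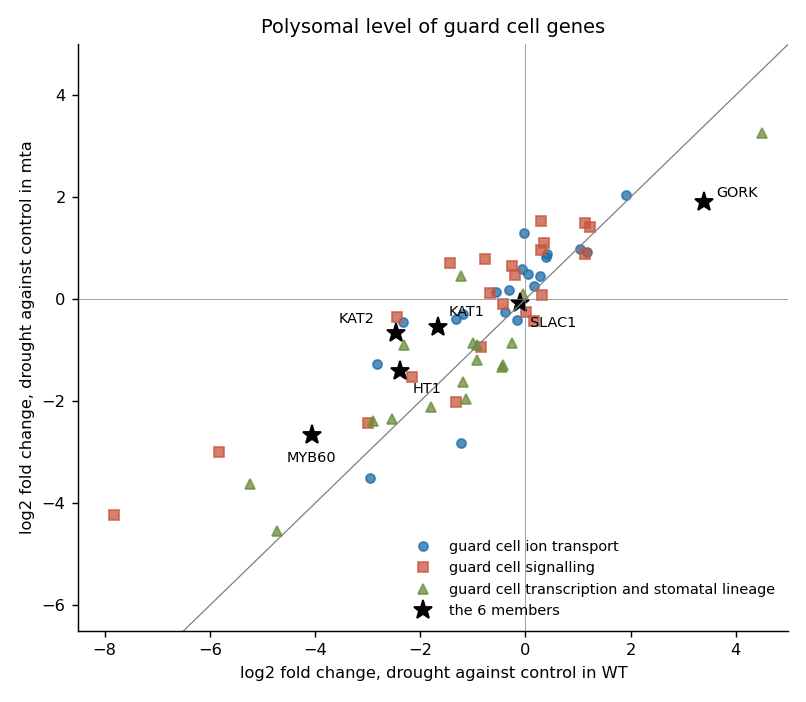
Polysomal log2 fold change of drought against control in WT (horizontal) and mta (vertical) for the guard cell lists and the 6 genes, with the line of equal change. The 4 lineage genes at 0 in WT drought are left out, GORK lies below the line, and KAT1, KAT2, HT1 and MYB60 lie above it.

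Markers of other leaf cells moved with drought as well. The summed mRNA level of 5 mesophyll markers was 19300 to 20640 CPM in WT control, 2276 to 2402 in WT drought, 23460 to 24520 in mta control and 3878 to 4019 in mta drought. All 5 fell in mRNA in both genotypes. Of all genes tested in mRNA, 67.9% were called with drought in WT and 70.3% in mta. Of 6 epidermis markers the sum was 1356 to 1445, 2129 to 2136, 1392 to 1445 and 2032 to 2058, and of 6 vascular markers 583.6 to 666.8, 1462 to 1559, 512.8 to 632.5 and 660.7 to 752.2. The members of these lists did not all move with the sums: of the 5 epidermis markers tested in mRNA, 2 rose and 2 fell with drought in WT (median log2 fold change -0.08) and 1 rose and 3 fell in mta (median -0.54), and of the 6 vascular markers 3 rose and 3 fell in WT (median 0.06) and 2 rose and 3 fell in mta (median -0.06). In polysomal RNA the epidermis sum was 2242 to 2351, 2444 to 2666, 2186 to 2491 and 2067 to 2103 CPM. The mesophyll sum there was 28580 to 29550, 2532 to 2660, 21330 to 22660 and 4303 to 4462 CPM. In the polysomal difference of drought effects, all 5 mesophyll markers were higher in mta minus WT (median 1.22), where 45.4% of all genes were called. Of the 6 epidermis markers 1 was higher and 2 lower, and of the 6 vascular markers 2 were higher and 2 lower. No marker of these 3 lists was at 0 in a group, and their part in the changes of the members was not tested. The sum of 4 root, seed and flower markers was 33.1 to 198.8 CPM over all mRNA groups, with AP3 at 0 in mta drought.

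The genes whose polysomal pattern over the 12 libraries was most like each member, by the root mean square difference of centred log2 CPM among 17398 genes, were G3Pp4 (0.123) and RVE2 (0.157) for GORK, whose own spread was 1.44. For KAT1, with a spread of 0.668, they were PUR ALPHA-1 (0.117) and EXL4 (0.124), and for KAT2, with a spread of 1.16, SRF8 (0.287) and AT5G23820 (0.297). MYB60, with a spread of 1.82, was nearest to PCNA1 (0.345) and AT2G32560 (0.384), and HT1, with 1.33, to AT5G33300 (0.464) and AT1G03457 (0.48). SLAC1 had a spread of 0.253, little more than its distance to AT5G15080 (0.194) and AT5G06350 (0.199). Within the 6, KAT1 and KAT2 were the closest pair (0.594) and GORK and MYB60 the farthest (3.2). Among all genes compared, KAT2 was only at rank 3838 by distance to KAT1. That distance was little less than the spread of KAT1 itself, so the pair was not close. These distances are over libraries that share groups and depth, and describe likeness only.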

How the data were processed

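The members and gene lists were chosen with earlier results of these data known. For 36 libraries the authors deposited raw counts per gene, made on TAIR10 gene spans with featureCounts 2.0.1 or 2.0.3, per the file headers. GMUCT was counted without strand and the other assays by strand, per the file headers. Of counts from 1 to 20, between 95.5% and 96.6% were even in polysomal files and between 43.9% and 45.9% in mRNA files, the pattern of counting each read of a pair. That factor is shared by all polysomal libraries. For 12 m6A libraries the authors deposited peak lists with a score, a fold enrichment (ratio) and −log10 p and q values. The background library of the peak calling is not given in the sources used here, where the submitters' processing notes name MACS2 and STAR without roles.

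Genes that passed filterByExpr (count of at least 10, total of at least 15) were scaled by TMM and fitted with 1 mean per group in edgeR 4.0.16 (R 4.3.3) over the whole table, for 4 measures and 5 contrasts each. P-values are quasi-likelihood F tests with Benjamini-Hochberg adjustment over all genes tested, and SE is the log2 fold change divided by the root of F. The pipeline was tested on simulated data, with changes placed only in genes of mean CPM over 10. Recovery at lower levels, such as those of SLAC1, KAT2, HT1 and MYB60, was not tested. An m6A region is a peak on the gene's strand that overlaps its span by at least 1 base in at least 2 of 3 libraries. All 6 members are named, with up to 3 list genes of largest change in each drought contrast and in the difference, and up to 2 in the others. List genes whose symbol did not match the annotation were left out, so 85 of 91 were used. Alternatives were DESeq2 1.42.0 and its size factors, no filter, a replicate block, removal of the trend with gene span, organelle genes left out, polysomal counts divided by 2 and each replicate left out; those for the list counts and list genes were chosen after seeing the data. Promoter motifs were not analysed here. Intervals and floors cover counting error only.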

Additional observations from a re-analysis of the deposited data

Results flagged for a closer look

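In 6 cases a drought effect of a member differed between mta and WT by the test of the difference itself (edgeR, mta minus WT, log2 scale). In mRNA this was GORK (-1.19), where 37.6% of all genes were called. In polysomal RNA it was KAT1 (1.12), KAT2 (1.78), GORK (-1.49) and MYB60 (1.41), where 45.4% of all genes were called. In polysome association it was KAT1 (1.26), where 9.59% were called. Of these calls, GORK in mRNA was lost with the span trend removed, MYB60 under 10 of 19 alternatives and KAT1 association under 5 of 19. In each of the polysomal cases the drought effect had the same sign in both genotypes and was smaller in mta. No group had the 4 libraries needed to look for a single library far from the others.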

How the results depend on the processing

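Of 386 counts of members under an alternative, 357 were unchanged in the sense of staying within 1.5 times. Removing the span trend changed the number of members called from 1 to 0 for the mRNA difference of drought effects, from 1 to 0 for association with drought in WT, from 1 to 2 for association of mta against WT in drought and from 1 to 0 for the association difference, and it reversed GORK association with drought in mta to -0.83. The replicate block took association with drought in WT from 1 to 0. No filter took the uncapped share with drought in mta from 0 to 1. With peaks of −log10 q of at least 10, the members with an m6A region went from 2 to 0 in mta control and from 1 to 0 in mta drought, and with peaks in all 3 libraries from 2 to 0 in mta control.

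Without single replicates the number of members called lay between 1 and 2 for mta against WT in drought in mRNA, between 0 and 1 for association with drought in WT, between 1 and 2 for association with drought in mta, and between 0 and 1 for association of mta against WT in drought and for the association difference. In the mRNA and polysomal levels, drought in WT kept 5 members called without any replicate. Over single members, 2149 values kept their direction and side of the threshold, 48 lost the call, 8 gained it and 1 reversed. For the list counts 1069 stayed within 1.5 times and 41 did not, and of the named list genes 735 values were kept and 6 lost the call. The cause was not tested for any of these.

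The count of all genes called moved by over 1.5 times in association and the uncapped share. With the span trend removed it was 4728 in place of 7267 for association with drought in mta, 1222 in place of 1955 for its difference, and for the uncapped share 2266 in place of 3648 with drought in mta, 1699 in place of 3151 for mta against WT in drought, 411 in place of 1373 for the difference and 106 in place of 67 for mta against WT in control. The last was 187 without the filter and 206 with DESeq2, and the uncapped share with drought in WT was 1721 without the filter and 1388 without organelle genes, in place of 877. Without single replicates, association of mta against WT in control was 957 to 1101 in place of 1684 without WT control 1 or 2 or mta control 3, association of mta against WT in drought 2127 and 2148 in place of 3416 without mta drought 2 and 1, and the association difference 1272 without WT control 2. For the uncapped share, drought in WT was 405 to 478 without WT control 1 or 2 or WT drought 2 or 3, drought in mta 1969 without mta drought 2, mta against WT in control 15 to 43 without WT control 1 or 2, WT drought 2 or mta control 2 or 3, mta against WT in drought 1794 and 2004 without mta drought 2 and WT drought 2, and the difference 573 to 911 without WT control 1 or 2, WT drought 2 or 3 or mta drought 1 or 2.

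Within each assay, residuals were correlated between libraries with the same replicate number in different groups. The correlations lay between -0.0874 and 0.156 in mRNA, -0.0308 and 0.0343 in polysomal RNA and -0.163 and 0.0894 in GMUCT. They gave no clear pairing between groups. Libraries of different assays were not compared in this way, so whether same-numbered ones share plants was not tested. The replicate block moved the count of all genes called by at most 1.29 times, 52 in place of 67 for the uncapped share of mta against WT in control, and apart from MYB60 association with drought in WT it changed no call of a member. Depth limits HT1, KAT2 and MYB60 most: in mRNA under WT drought they had 1, 15 and 13 counts over 3 libraries.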
